A study of Mus musculus with 65 samples.

Results

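CTCF was compared between maturing erythroblasts (ERY) and LSK cells, the bone marrow fraction that holds the hematopoietic stem cells and early multipotent progenitors. The members were the 4 CTCF peak lists titled with these cell types, 2 of ERY and 2 of LSK, of 65 samples in the series. ERY cells had been sorted as lineage-negative, Ter119+, CD44+ and low in forward scatter. LSK cells had been sorted as lineage-negative, Ter119-, cKit+ and Sca1+. Both types came from bone marrow of wild-type C57BL/6 mice, by the paper males, and neither carried a transgene or received a drug. Cells of many animals and sorts were pooled for a library, so the 2 lists of a type sample pools and not single mice, and 1 input library per type served both of its lists. A peak list measures where CTCF was bound and not which genes were expressed, so the sorted identities could not be checked against marker genes here. The sheared chromatin averaged 250 and 276 bp in ERY and 241 and 231 bp in LSK, so cell type and chromatin length cannot be told apart, and all 4 lists had been assessed by the authors as Pass.

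CTCF is a zinc finger protein that binds a long, GC-rich DNA motif, and it is the main insulator protein of vertebrates. With the cohesin ring it anchors chromatin loops, and cohesin that extrudes DNA is halted at CTCF sites according to the direction of the motif. Methylation of a CpG inside the motif is known to weaken binding at some sites. Red cell precursors shrink their nuclei and shut down most transcription as they mature.

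ERY lists held far fewer peaks. They contained 8284 and 6629 peaks, against 18945 and 28476 in the LSK lists, and the groups did not overlap. The mean log10 peak number differed by -0.50, with p = 0.333 in a two-sided exact permutation test, the smallest p that 2 against 2 lists allow, and p = 0.444 after Benjamini-Hochberg adjustment over 4 tests. Sequencing depth is unknown, since the lists give no read counts, and its part in these numbers was not tested. The median strength of a peak, its −log10 p as MACS gave it, was 8.52 and 8.23 in the ERY lists, against 12.6 and 13.8 in the LSK lists. These values were not scaled between lists, so they do not compare the strength of a single site between the types.

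Peaks sharing at least 1 bp were merged into 31134 sites. Of these, 54 sites (0.173%) were called in both ERY lists and in neither LSK list and are named ERY-only, while 10240 sites (32.9%) were called in both LSK lists and in neither ERY list and are named LSK-only. A further 4426 sites (14.2%) were called in all 4 lists and are named constant. Of the 4662 sites called in both ERY lists, 94.9% (95% Wilson interval 94.3 to 95.5%) lay in both LSK lists. Of the 17901 sites called in both LSK lists, 24.7% (24.1 to 25.4%) lay in both ERY lists, 18.1% in 1 of them and 57.2% (56.5 to 57.9%) in neither. On whole lists, therefore, the ERY sites were nearly a subset of the LSK sites. The intervals cover counting error over sites only and not the spread between libraries.

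Reproducibility within a type was read from the same lists. ERY list 1 shared 56.7% of its sites with ERY list 2, and list 2 shared 70.8% with list 1. LSK list 1 shared 94.8% of its sites with LSK list 2, and list 2 shared 63.1% with list 1. Each ERY list alone had many sites absent from LSK that the other ERY list did not hold, 1104 in list 1 and 640 in list 2, so asking for both lists removed most of them.

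Because the lists differ in length, the comparison was repeated with the 6629 strongest peaks of each, as many as the shortest list holds. This moved every count. Among 12428 merged sites, 942 were ERY-only (7.58%), 1270 were LSK-only (10.2%) and 2384 were called in all 4 (19.2%). Of the sites strong in both LSK lists, 52.3% (50.9 to 53.8%) were strong in both ERY lists, and of the sites strong in both ERY lists 55.2% (53.8 to 56.7%) were strong in both LSK lists. Lists of equal length must lose about as many sites as they gain, so these nearly equal shares are partly built in. The weakest peak retained had a −log10 p of 5.85 and 5.00 in the ERY lists, against 16.6 and 25.98 in the LSK lists.

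The strong sites were also looked up in the complete lists. Of the 942 strong ERY-only sites, 761 (80.8%) had a peak in both LSK lists that ranked below the 6629 strongest there. A further 38 (4.03%, 2.95 to 5.49%) had no LSK peak of any strength. A lower-ranked LSK peak could still have a −log10 p above that of the ERY peak, because the cutoffs differed. Most strong ERY-only sites were thus differences of rank. Of the 1270 strong LSK-only sites, 1163 (91.6%, 89.9 to 93.0%) had no ERY peak of any strength, and the remaining 107 had one in ERY list 1. The 2 shares cannot be set against each other, because list length largely fixes them: ERY list 2 has exactly 6629 peaks and so holds no weaker peak to find, and ERY list 1 holds few more, whereas the LSK lists hold 18945 and 28476.

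**Figure D1:**
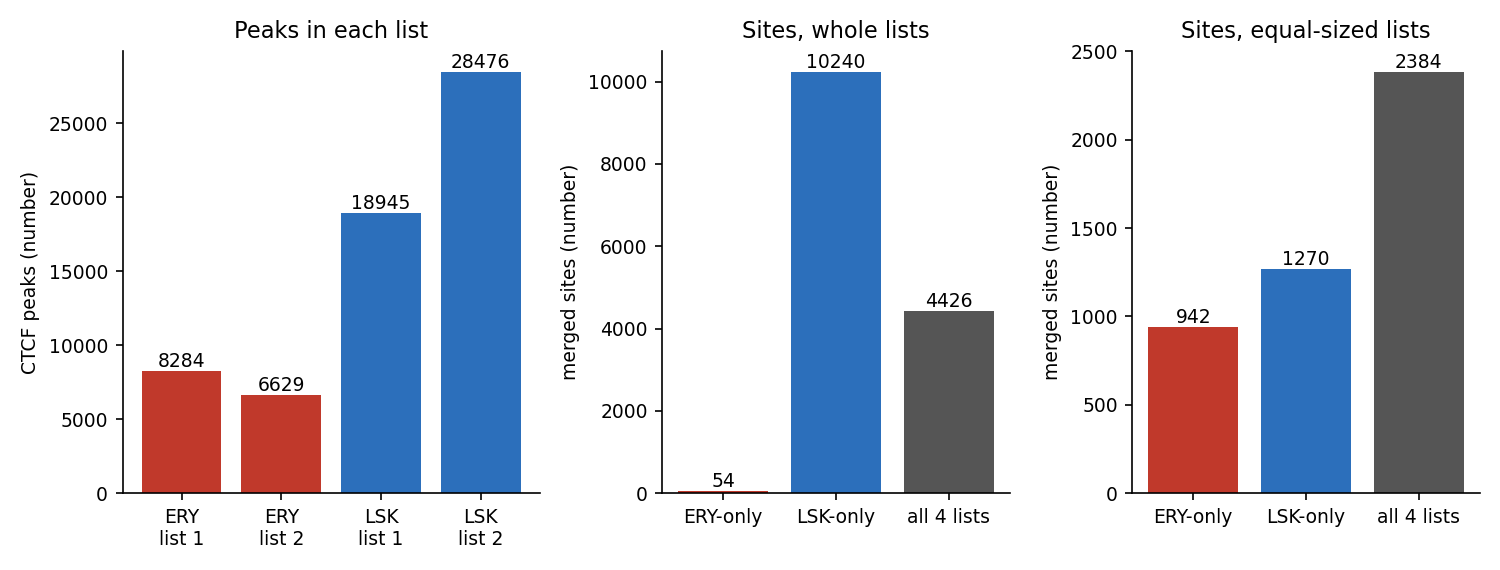
Number of CTCF peaks in each ERY and LSK list (left) and number of merged sites called in both lists of one type and neither of the other, or in all 4 lists, from whole lists (middle) and from the 6629 strongest peaks of each list (right). ERY-only sites number 54 in whole lists and 942 in equal-sized lists, against 10240 and 1270 LSK-only sites.

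Sites that stayed bound are shown first by their sequence. The 10 best-ranked sites called in all 4 lists all contained a match to a 19 bp CTCF matrix, and were called in CFUE (erythroid colony-forming progenitors), in MEP (megakaryocyte-erythroid progenitors) and in every other CTCF library used. The best-ranked lay in an intron of Sec22c, a gene of vesicle traffic between endoplasmic reticulum and Golgi, at chr9:121697192-121698340 of GRCm38 (mm10). Its −log10 p was 146 and 193 in the ERY lists, against 168 and 310 in the LSK lists, where 310 is the highest value the lists hold. A site in an exon of Gdf15, which encodes a secreted stress cytokine, reached 84.1 and 92.3 in ERY and 75.8 and 161 in LSK. The promoter of Klf1, the erythroid Krüppel-like factor, carried a weaker constant site, with 21.6 and 35.1 in ERY and 37.3 and 66.7 in LSK. By rank the Klf1 site stood at 6.99% and 1.37% from the top in ERY, against 4.85% and 1.72% in LSK. The best matches of these sites, read 5′ to 3′ from RefSeq GRCm38.p6 with 11 bases on either side, are given here with the 19 matched bases in capitals, to show what a retained site looks like.
Sec22c intron (chr9:121697914-121697954, plus strand): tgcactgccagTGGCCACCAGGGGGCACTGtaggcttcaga
Gdf15 exon (chr8:70629881-70629921, minus strand): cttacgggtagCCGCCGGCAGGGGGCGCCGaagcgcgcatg
Klf1 promoter (chr8:84903240-84903280, minus strand): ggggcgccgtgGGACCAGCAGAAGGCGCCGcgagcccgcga
The other constant sites of the top 10 lay in or near Snx29, Rbm19, Nipsnap2, Dus3l, Fam129b, Arid3a, Sh3glb1 and Epm2aip1. Those of Nipsnap2, Dus3l and Sh3glb1 were promoters, taken as 1000 bp around any GENCODE transcript start, and that of Fam129b was exonic. At Nipsnap2, a mitochondrial protein gene, the values were 82.9 and 64.9 in ERY and 56.8 and 143 in LSK.

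The best-ranked LSK-only sites also carried the motif. All 10 held a match, 9 of the 10 were called in each of the 5 libraries of CMP (common myeloid progenitors), GMP (granulocyte-macrophage progenitors), CFUMk (megakaryocyte progenitors) and iMk (immature megakaryocytes, 2 libraries), and all 10 were called in MEP. CFUE called 1 of the 10. In the erythroid line G1E-ER4+E2, described below, 4 of the 10 were called in all 14 libraries and 2 in none. Their values spanned 51.7 to 118 in LSK list 1 and 74.0 to 310 in LSK list 2, with no peak in either ERY list. The site near Snhg7os, a noncoding RNA gene (chr2:26646537-26647498), had 76.4 and 180, and the site in an intron of Fgf20, a fibroblast growth factor gene (chr8:40296164-40296907), had 70.8 and 117. A site 349 bp from a transcript start of Wnt7b, which encodes a Wnt ligand, overlapped AU022754 and had 61.3 and 74.0. The remaining sites included those in introns of Rasa2 and Tpcn2, and those between genes near Gm43247, Gm40513, Gm11379 and Gm22973. The protein-coding genes with the nearest starts to the last 4 were Crybb2, Sorl1, Foxc1 and Gemin2. The Gm22973 site differed from the rest, being 4425 bp wide with 96.8% of its bases soft-masked as repeats.

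Promoters among the strong LSK-only sites without any ERY peak were listed by the same rank, a list chosen after the data were seen. They numbered 185 of 1163. After that of Wnt7b came Wif1, which encodes a secreted Wnt inhibitor, with 52.8 and 84.4 in LSK, then Ptpre, a tyrosine phosphatase gene, with 40.7 and 90.5. Col23a1, a collagen gene, had 42.2 and 76.1, and Sh3bp5 had 40.4 and 88.8. The next 5 promoters were those of Gm2109, Fkbp2, Ankrd2, Cpne8 and Lrfn2. All 10 were called in MEP and in all 5 libraries of the other lineages, and 6 of the 10 were called in CFUE. The sites at Gm2109 and Fkbp2 were called in all 14 G1E-ER4+E2 libraries, and those at Col23a1, Cpne8 and Lrfn2 in none. The rest were called in 11 to 13 of these libraries. Over all 1270 strong LSK-only sites the share called was 24.3% in CFUE and 94.5% in MEP, so these promoters were called in CFUE more often than the class as a whole. These lost sites carry ordinary CTCF matches, as the following set shows beside 2 sites of lineage genes described further on, again with the matched bases in capitals.
near Snhg7os (chr2:26646970-26647010, plus strand): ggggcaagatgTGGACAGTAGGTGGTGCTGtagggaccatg
Fgf20 intron (chr8:40296603-40296643, plus strand): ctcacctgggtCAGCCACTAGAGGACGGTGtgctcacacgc
AU022754 and Wnt7b promoter (chr15:85583688-85583728, minus strand): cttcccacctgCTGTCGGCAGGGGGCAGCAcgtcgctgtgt
Wif1 promoter (chr10:121033928-121033968, minus strand): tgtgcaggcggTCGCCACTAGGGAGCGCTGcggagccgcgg
Cebpa promoter (chr7:35119223-35119263, plus strand): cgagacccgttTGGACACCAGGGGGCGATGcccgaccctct
Hoxa10 promoter (chr6:52240526-52240566, minus strand): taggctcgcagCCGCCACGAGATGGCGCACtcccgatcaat

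The best-ranked ERY-only sites lay mostly in repeats. These 10 had −log10 p of 6.24 to 16.5 in ERY list 1 and 6.17 to 58.8 in ERY list 2, 8 of the 10 lay mostly in repeats, with at least 50% of their bases soft-masked, and 1 of the 10 held a CTCF match. Over all ERY-only sites 15 of 54 (27.8%) were mostly repeats, against 13.4% of all merged sites, so the best-ranked do not stand for the class. The first, between genes near Foxd4 (chr19:24912159-24914536), had 14.03 and 58.8, and 98.9% of it was repeat. Sites of the same kind lay near Glt6d1, Gm27322 (2 sites), 4930517M08Rik, Gm24818 and Vmn1r3 and in an intron of Gramd1b. The site in Neu2, a sialidase gene, lay in an intron, was mostly unique sequence and had no match. CFUE called 9 of the 10, and no G1E-ER4+E2 library called 6 of them. G1E-ER4+E2 is an estradiol-treated mouse erythroid line, of which 14 CTCF libraries assessed as Pass were used.

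Of all 54 ERY-only sites, 32 (59.3%, 46.0 to 71.3%) held a match and 22 did not, and 13 of these 22 were mostly repeats, against 2 of the 32. CFUE called 14 of the 32 sites with a match and 13 of the 22 without. At least 10 of the 14 G1E-ER4+E2 libraries called 11 of the 32, and 2 of the 22.

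A few ERY-only sites with a match are described singly, picked out after their values were seen, and their genes stand for no group. One covered the promoter of Bloodlinc, an erythroid noncoding RNA gene (chr11:102376944-102377598), with 9.16 and 7.82 in ERY, called also in CFUE and in 6 of the 14 G1E-ER4+E2 libraries. A further site lay in the interval between Ubtf and Slc4a1, which encodes the band 3 anion exchanger of the red cell membrane, with 5.33 and 5.77 in ERY, close to the lowest value the lists hold. CFUE did not call it, whereas 3 of the 14 G1E-ER4+E2 libraries and 3 of the 5 CMP, GMP, CFUMk and iMk libraries did. The promoter of Plek2, which encodes an actin-binding pleckstrin of late erythroblasts, had 7.36 and 6.14, and was called in CFUE and in no G1E-ER4+E2 library. A site in an intron of Gng12, a G protein gamma subunit gene, had 10.8 and 6.03, and all 14 G1E-ER4+E2 libraries called it. CFUE did not call the Gng12 site, whereas MEP and 4 of the 5 CMP, GMP, CFUMk and iMk libraries did. The following matches are shown because several of them share a run of letters.
Bloodlinc promoter (chr11:102377317-102377357, plus strand): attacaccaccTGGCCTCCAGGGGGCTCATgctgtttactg
Gng12 intron (chr6:66962649-66962689, plus strand): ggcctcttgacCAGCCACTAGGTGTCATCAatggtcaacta
Dpp6 intron (chr5:27724455-27724495, minus strand): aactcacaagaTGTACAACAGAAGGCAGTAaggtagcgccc
between Ubtf and Slc4a1 (chr11:102339784-102339824, plus strand): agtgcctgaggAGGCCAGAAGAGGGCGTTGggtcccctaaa
near Gm38061 (chr11:31694291-31694331, minus strand): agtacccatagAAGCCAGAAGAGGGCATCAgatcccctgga
near Pnpla1 (chr17:28842124-28842164, minus strand): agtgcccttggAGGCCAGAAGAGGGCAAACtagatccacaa
The shared run, CCAGAAGAGGGC within the matched bases of the last 3, was searched on both strands of whole sites. It is the most frequent run of 12 letters among the matches of ERY-only sites and was chosen after these sequences were seen, so its count in ERY-only sites is a description only. It occurred in 8 of 54 ERY-only sites (14.8%), in 7.11% of LSK-only sites and in 5.63% of sites called in all 4, against 8.78% of all 31134 merged sites. In windows of the same lengths 10 kb away from all merged sites it occurred in 2.81%. In equal-sized lists the shares were 9.77%, 2.99% and 4.19%, against 6.02% of all 12428 sites. It overlaps the CTCF matrix itself, so it is not a second motif. The best match lay in soft-masked bases at 13 of 32 ERY-only sites with a match (40.6%), at 13.7% of LSK-only sites and at 10.2% of sites in all 4. The repeat families were not annotated here.

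The share of peaks with a CTCF match was 88.0% and 90.1% in the ERY lists, against 96.3% and 89.7% in the LSK lists, and the groups overlapped. The mean difference was -3.88 percentage points, with p = 0.667 in a two-sided exact permutation test, and -6.09 points among the 6629 strongest peaks of each list (p = 0.333, the smallest the exact permutation test allows). Windows 10 kb from the peaks held a match in 23.2% and 25.5% of cases for ERY and in 26.04% and 22.4% for LSK. Promoters held 17.8% and 20.97% of ERY peaks, against 15.5% and 17.2% of LSK peaks. The groups did not overlap, the difference was 3.03 percentage points, and p = 0.333 in the exact permutation test. Among the 6629 strongest peaks of each list this difference shrank to 0.196 percentage points (p = 1 in the exact permutation test).

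Constant sites stood apart from LSK-only sites in several descriptive features, which were not used to define the classes. Promoters made up 14.8% of ERY-only sites (7.70 to 26.6%), 13.3% of LSK-only sites (12.7 to 14.02%) and 23.4% of sites in all 4 (22.2 to 24.7%), against 16.8% of all merged sites. The median distance to a transcript start was 8665, 10681 and 5992 bp in the same order. A match was present in 59.3%, 96.1% and 98.0%, with a median score of 15.3, 17.4 and 19.2 bits. A CpG lay in the matched bases at 34.4%, 44.3% and 57.4% of sites with a match. Introns held 35.2%, 42.0% and 35.9%. In equal-sized lists the promoter share was 17.2%, 15.7% and 25.96%, and the CpG share 49.4%, 54.7% and 61.1%. Promoter, match and CpG shares were therefore higher in sites of all 4 lists than in LSK-only sites under both definitions. Sites were scanned over their whole width, and in whole lists the median width was 642.5, 747.5 and 843 bp in the same order. Windows of the same widths 10 kb away held a match in 18.5%, 24.7% and 36.4%. The part of width and local sequence in these features was not tested, here or within ranks. Constant sites were also the stronger ones, with a median rank at 19.02% from the top of the LSK lists, against 52.5% for LSK-only sites, so these features were examined again within ranks.

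**Figure D2:**
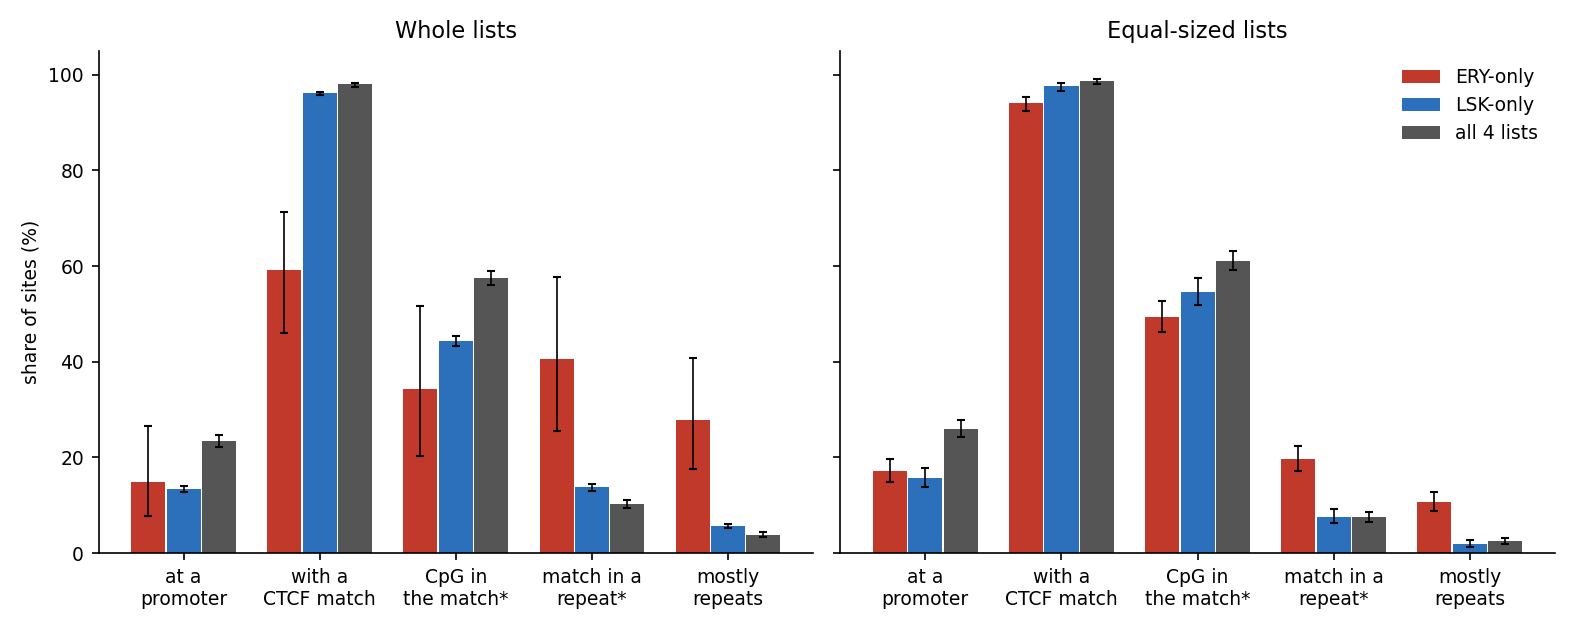
Share of ERY-only, LSK-only and all-4 sites with each feature, from whole lists (left) and equal-sized lists (right); bars are percentages and error bars 95% Wilson intervals, and an asterisk marks shares of the sites that have a CTCF match. In whole lists 59.3% of ERY-only sites had a match, against 96.1% of LSK-only sites and 98.0% of sites in all 4.

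Retention followed LSK strength closely. The 17901 LSK sites were ordered by their mean rank in the LSK lists and divided into 10 groups of 1790 or 1791. Of the strongest group, 66.7% (64.5 to 68.9%) were called in both ERY lists, then 52.1%, 37.8%, 26.9%, 20.9%, 16.4%, 9.94%, 7.77%, 5.42% and, in the weakest group, 3.35%. Even of the strongest group 16.5% had no peak in either ERY list.

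Promoter sites were retained more often within the upper groups. In the strongest, 76.3% of promoter sites (72.0 to 80.1%, n = 426) were kept, against 63.7% of other sites (61.2 to 66.2%, n = 1365). In the third the shares were 52.1% and 34.7%, and in the fifth 28.8% and 19.4%. The shares came together at the weak end, with 5.45% against 5.41% in the ninth group and 3.35% against 3.35% in the last. Matches scoring at or above the median of their group were kept more often than lower-scoring ones in all 10 groups, with 73.3% against 59.9% in the strongest and 4.39% against 2.38% in the weakest. A CpG in the match gave a smaller and less regular contrast, with 68.7% against 63.2% in the strongest group, 51.7% against 53.0% in the second and 3.17% against 3.51% in the weakest.

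**Figure D3:**
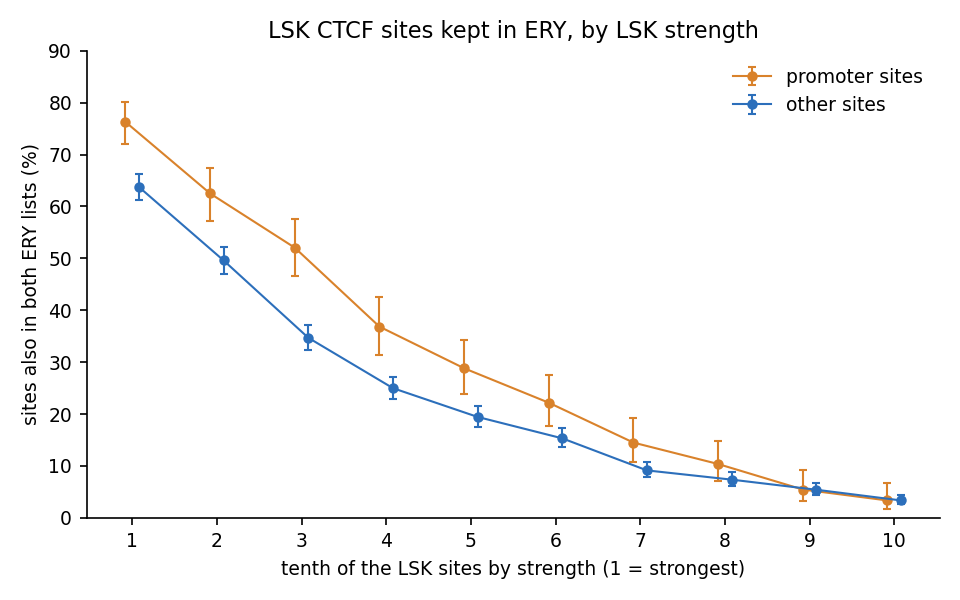
Share of LSK sites that were also called in both ERY lists, for 10 groups of LSK sites ordered from strongest (1) to weakest (10), for promoter sites and for other sites; error bars are 95% Wilson intervals. Promoter sites lie above other sites in the stronger groups (76.3% against 63.7% in the first) and meet them in the last (3.35% for both).

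The X chromosome carried few LSK sites and kept few of them. Of 192 sites on it 11 were kept (5.73%, 3.23 to 10.0%) and 79.7% had no ERY peak, against 24.9% kept and 57.0% without an ERY peak on the other chromosomes. X sites were also weaker, with a median rank at 65.7% from the top, against 40.9% elsewhere, and only 11 of the 192 stood in the strongest 3 groups, where 3 were kept. Among autosomes chromosome 11 kept 33.0% and chromosome 4 kept 31.6%, whereas chromosome 3 kept 17.5% and chromosome 13 kept 18.2%.

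The order of strength among constant sites also differed by type. Across the 2384 sites strong in all 4 lists, Spearman's rho of the ranks was 0.56 between the ERY lists and 0.47 between the LSK lists, and 0.22 to 0.30 between an ERY and an LSK list. Across the 4426 sites of the whole lists it was 0.51, 0.64 and 0.29 to 0.40. The 2 lists of a type share their input library, and sites are not independent replicates, so these values are a description.

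Gene lists were examined next. A gene was counted when a site lay within it or within 10 kb of it. Among 21911 protein-coding genes, 0.21% had an ERY-only site, 30.2% an LSK-only site and 20.2% a site in all 4. Longer genes have more room for a site, since the median length was 17.4 kb over all protein-coding genes and 31.7 kb over those with an LSK-only site.

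Erythroid regulators were served mainly by constant sites. Of 16 genes, 8 (50%) had a site in all 4 lists, 2 (12.5%) an LSK-only site and none an ERY-only site. Klf1 and Gfi1b, a repressor that erythroid cells need, had constant promoter sites. The constant site in Nfe2, a globin-activating bZIP factor, lay 648 bp from a transcript start and was thus counted as a promoter. It lay 7586 bp from the start of the Nfe2 gene itself. At Nfe2 the values were 11.95 and 28.6 in ERY, against 37.8 and 37.1 in LSK. At Gfi1b they were 12.2 and 13.8 in ERY, against 23.9 and 25.999 in LSK. Zfpm1, the GATA1 cofactor, had a constant site in an intron and another 8396 bp from its start, in an intron of Gm20388. Within 10 kb, Stat5a and Jak2 of erythropoietin signalling had 1 each, and Tal1 and Lmo2 of the same DNA-binding complex 1 each. At Tal1 the values were 16.5 and 12.4 in ERY, against 10.4 and 18.8 in LSK, so that the ranges overlapped. By rank the Tal1 site stood nearer the top in ERY, at 14.7% and 24.0%, against 60.7% and 36.7% in LSK. Ldb1 and Stat5b had weak LSK-only intronic sites, with 5.66 and 10.9 at Ldb1 and 5.14 and 7.38 at Stat5b.

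Red cell product genes had a similar share with a constant site. Their share with an LSK-only site was larger than that of erythroid regulators and near the 30.2% of all protein-coding genes. Of 19 found, 8 (42.1%) had a site in all 4, 5 (26.3%) an LSK-only site and 1 (5.26%) an ERY-only site, that near Slc4a1. The alpha globin genes Hba-a1 and Hba-a2 were flanked by constant sites at the theta globin genes Hbq1b and Hbq1a. The site at Hbq1b had 13.99 and 19.8 in ERY, against 26.9 and 60.3 in LSK, and that at Hbq1a had 20.8 and 13.7, against 28.9 and 31.3. Their matched sequences are identical, so reads between these duplicated copies may not have been placed uniquely. Epb41 and Ank1, which encode red cell skeleton proteins, had 3 and 2 constant sites, and Tfrc, the transferrin receptor gene, had 1, with 14.5 and 13.8 in ERY, against 5.66 and 27.0 in LSK. Sptb, Slc25a37 and Urod also had constant sites. Genes with LSK-only sites included Fech, Urod, Epb41 and Ank1.

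Stem and progenitor genes showed the reverse count. Of 16 genes, 9 (56.3%) had an LSK-only site, 2 (12.5%) a site in all 4 and none an ERY-only site. The list was chosen with earlier results of these data known, and its genes were long, with a median of 38.4 kb. Lymphoid genes (50%) and known CTCF loci (60%) had shares near that of the stem and progenitor genes. Weak LSK sites were seldom kept in general, and LSK strength was not held equal between gene lists. Only 2 of the 16 genes had a strong LSK-only site. The 13 LSK-only sites belonged to Kit, Cd34, Meis1, Hoxa9, Hoxb4, Mecom, Erg, Hlf and Procr. CFUE called 0 of the 13, MEP called 8, and each site was called in at least 3 of the 5 CMP, GMP, CFUMk and iMk libraries. By comparison CFUE called 12.1% of all 10240 LSK-only sites, so a count of 0 among 13 is near that background. The site in the promoter of Kit, the stem cell factor receptor gene, had 8.17 and 15.0 in LSK and was called in 2 of 14 G1E-ER4+E2 libraries. The site with the highest value in LSK list 1 lay within 10 kb of Hoxa9, at the promoter of Hoxa10 (chr6:52240113-52241016), with 24.3 and 31.4, and no G1E-ER4+E2 library called it, whereas MEP and the 5 other libraries did. In the same gene cluster, a site in Hoxa7 stayed in all 4, with 9.18 and 5.50 in ERY, against 35.0 and 68.8 in LSK. Mecom, a regulator of stem cell maintenance, had 3 LSK-only sites, with 6.19 to 12.6 in LSK list 1 and 10.2 to 38.3 in list 2, and no G1E-ER4+E2 library called any of them. Erg and Hlf had 2 each. Procr, which encodes the protein C receptor used to sort stem cells, had a site with 18.6 and 26.8. Runx1 kept an intronic site, with 16.5 and 18.2 in ERY, against 15.9 and 24.5 in LSK.

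**Figure D4:**
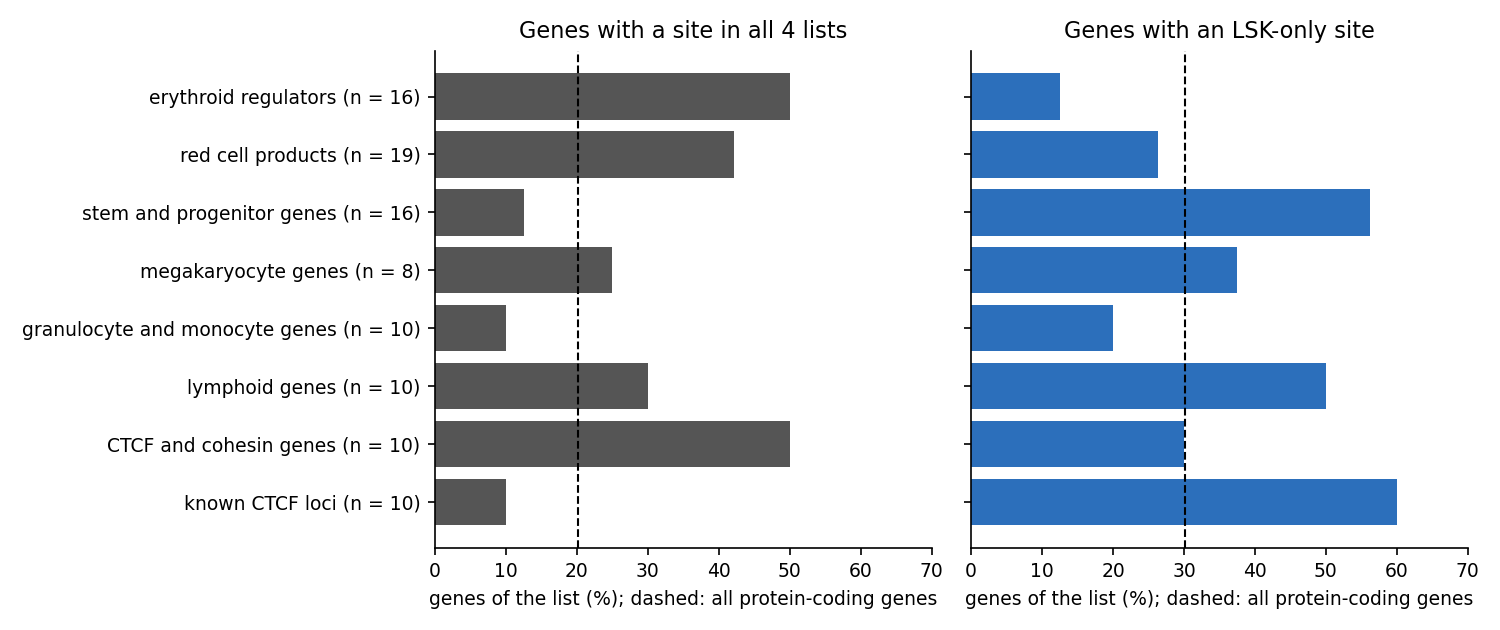
Share of the genes of each list with a site in all 4 lists (left) and with an LSK-only site (right) within the gene or 10 kb of it, from whole lists; n is the number of genes found, and the dashed line is the share of all protein-coding genes (20.2% and 30.2%). Erythroid regulators stand at 50% and 12.5%, and stem and progenitor genes at 12.5% and 56.3%.

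Lists of other lineages varied. Of 10 lymphoid genes 5 (50%) had an LSK-only site, against 30.2% of all protein-coding genes. A constant site was present at 3 (30%), against 20.2%. Ebf1, the early B cell factor gene, had 3 LSK-only sites, and the strongest, 5938 bp from its start (chr11:44610716-44611379), had 35.4 and 71.9. Pax5, Rag1, Dntt and Notch1 had the others, and CFUE called none of the 8. With 12.1% of all 10240 LSK-only sites called in CFUE, a count of 0 among 8 is near that background. Ikzf1, Pax5 and Cd79a had constant sites. Of 10 granulocyte and monocyte genes 2 (20%) had an LSK-only site, below the 30.2% of all genes. Cebpa, the granulocyte master regulator gene, had 2, of which that over its promoter (chr7:35118814-35119647) had 20.6 and 66.5, and no G1E-ER4+E2 library and not CFUE called either. Mpo had 1, and Elane had a constant site, with 7.67 and 8.17 in ERY, against 17.4 and 18.8 in LSK. Of 8 megakaryocyte genes 3 (37.5%) had an LSK-only site, against 30.2% of all genes. One lay near Itga2b, at the promoter of Fam171a2 (chr11:102447292-102448146), with 21.5 and 57.2, and CFUE called it. Vwf had 1 LSK-only and 3 constant sites, Fli1 an LSK-only promoter site and Itgb3 a constant one.

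Genes of CTCF and cohesin, 10 in number, had LSK-only sites in 3 (30%, as in all genes) and constant sites in 5 (50%). The site within 10 kb of Ctcf lay at the promoter of its neighbour Carmil2, with 30.6 and 53.9 in LSK, and all 14 G1E-ER4+E2 libraries but not CFUE called it. Constant promoter sites lay at Stag1, Nipbl, Pds5a and Pds5b, and Smc3 had a constant site between genes. Nipbl and Pds5b had an LSK-only site as well. Of 10 known CTCF loci 6 (60%) had an LSK-only site, namely Igf2, Peg13, Myc, Hoxa13, Hoxd13 and the gamma protocadherin gene Pcdhga1, and Pcdhga1 also a constant one. Of their 9 LSK-only sites only 4 held a CTCF match, against 96.1% of all LSK-only sites, and the constant site held none. In equal-sized lists 0 of the 10 genes had an LSK-only site. The site near Myc (chr15:61983007-61983761), 1630 bp from its start and at a promoter of Gm37947, had 14.6 and 25.8 and was called in CFUE and in 12 of 14 G1E-ER4+E2 libraries. That of Peg13, an imprinted noncoding RNA gene, had 10.2 and 31.5 and was called in neither.

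In equal-sized lists fewer protein-coding genes had an LSK-only or constant site and more had an ERY-only site. Strong ERY-only sites were present at 4.85%, strong LSK-only sites at 4.73% and strong sites in all 4 at 12.2% of protein-coding genes. Strong sites in all 4 were found at 5 of 16 erythroid regulators (31.3%) and 1 of 16 stem and progenitor genes (6.25%). Strong LSK-only sites were found at 0 erythroid regulators, 0 red cell product genes and 2 stem and progenitor genes, Hoxa9 and Procr. Strong ERY-only sites were found at 1 of 16 erythroid regulators (Tal1), 1 of 19 red cell product genes (Slc25a37), 1 of 16 stem and progenitor genes (Runx1), 1 of 8 megakaryocyte genes (Itgb3) and 2 of 10 lymphoid genes (Ikzf1 and Pax5). These did not follow the division between erythroid and stem cell lists seen in whole lists.

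Libraries that took no part in defining the classes were then used to ask whether the differences recurred. For each of 20 libraries the percent of LSK-only sites called was set against the percent of ERY-only sites called. CFUE, the only primary erythroid library besides ERY, called 50% of ERY-only sites (37.1 to 62.9%) and 12.1% of LSK-only sites (11.4 to 12.7%). It was the only one of the 20 to call a larger share of ERY-only than of LSK-only sites. The 14 G1E-ER4+E2 libraries called 31.7% ± 9.82 of ERY-only and 46.1% ± 11.02 of LSK-only sites (SD, n = 14). The CMP, GMP, CFUMk and iMk libraries called 40.7% ± 12.8 and 79.4% ± 13.2 (SD, n = 5). On whole lists ERY-only sites were thus not called more often by the erythroid libraries, which averaged 33.0% with CFUE included. The largest share of ERY-only sites, 59.3%, was called by CFUMk. The contrast below therefore came from the LSK-only sites. The LSK-only share minus the ERY-only share averaged 10.9 ± 14.2 percentage points in the 15 erythroid libraries and 38.6 ± 1.71 in the 5 others (SD), lower in each of the 15 than in any of the 5. The difference was -27.8 points, with p = 0.000129 in a two-sided exact permutation test, the smallest p it can give, and 0.000516 after Benjamini-Hochberg adjustment over 4 tests. Without CFUE it was -24.3 points (p = 0.000172, exact permutation test).

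This test has limits of design. The erythroid group is 14 libraries of a single cell line and 1 primary library, so lineage and cell line cannot be told apart, and the libraries of the line are not separate animals. By the paper, many of them form a series in which sonication and cell number were varied. The test counts each library as a replicate although those of the line are not independent. Its p-value therefore does not measure a difference between lineages. The erythroid lists were also shorter, with 10655 to 21986 peaks, against 19612 to 36481 in the other 5.

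List length was therefore controlled. With only the tested libraries reduced to their 6629 strongest peaks, the contrast shrank to -11.7 points (p = 0.000129, exact permutation test). It was also equalised on both sides, an alternative added after the data were seen. With site classes from equal-sized lists and the 6629 strongest peaks of each library, erythroid libraries called 45.6% ± 3.69 of ERY-only sites and 34.3% ± 5.90 of LSK-only sites (SD, n = 15). The other libraries called 30.2% ± 6.16 and 59.6% ± 7.97 (SD, n = 5). The contrast was -40.7 points, with p = 0.000129 in the exact permutation test. ERY-only and LSK-only sites each differed in direction between the groups, with no overlap, since erythroid libraries called 39.3 to 55.1% of ERY-only sites, against 24.0 to 36.5% in the others, and 14.4 to 38.7% of LSK-only sites, against 50.4 to 70.6%. CFUE stood at the end of both ranges, with 55.1% of ERY-only and 14.4% of LSK-only sites.

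MEP, which can form both red cells and megakaryocytes, was given but not tested. It called 29.6% of ERY-only and 58.4% of LSK-only sites of the whole lists, a contrast of 28.8 points, which lay between the highest erythroid library (18.97) and the lowest of the others (35.7). In equal-sized lists it called 79.7% of ERY-only and 94.5% of LSK-only sites at any rank, against 71.8% and 24.3% in CFUE. The strong LSK-only sites were thus nearly all called in MEP. Sites in all 4 lists were called in 80.03 to 95.8% of cases by erythroid libraries, against 92.5 to 99.9% by the others.

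**Figure D5:**
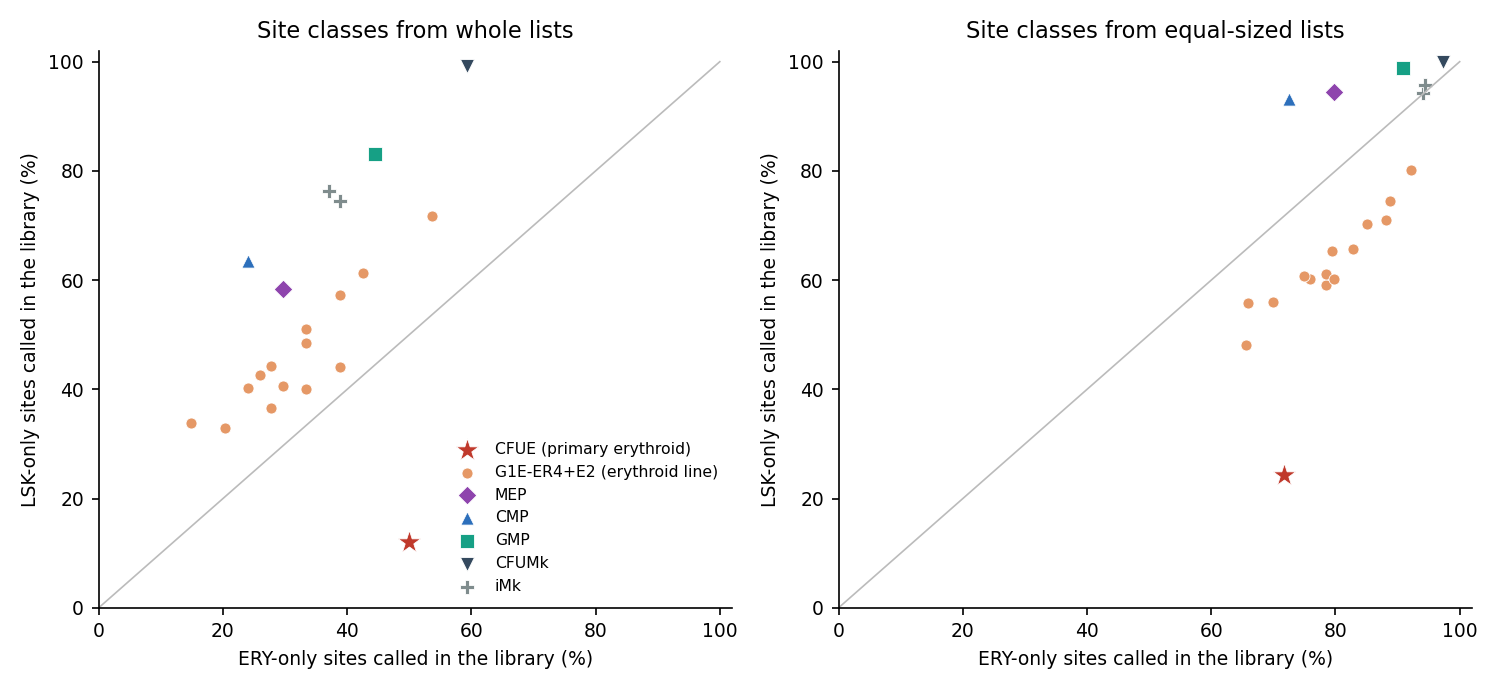
Percent of ERY-only sites (horizontal axis) and of LSK-only sites (vertical axis) called in each of 21 CTCF libraries that did not define the classes, with classes from whole lists (left) and equal-sized lists (right); each point is 1 library and the grey line marks equal shares. CFUE lies lowest, at 12.1% and 24.3% of LSK-only sites, and the 14 G1E-ER4+E2 libraries lie below the CMP, GMP, CFUMk and iMk libraries at like ERY-only shares.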

How the data were processed

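Chromatin immunoprecipitation sequencing with a CTCF antibody had been done on sorted bone marrow cells. The authors aligned the reads to mm10 with Bowtie and called peaks with MACS against 1 input library per cell type, with bcl2fastq 1.8.4 and Bowtie 1.0.0 listed in the notes of the submitters on processing. Each deposited list gives a fold enrichment (a ratio over input), a −log10 p and a false discovery rate, as a fraction from MACS that was not used here. The deposited −log10 p starts at 5. The lists hold no read counts, so the depth is unknown. The series has 65 samples, and 25 CTCF lists were used and 28 lists were not used.

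Peaks sharing at least 1 bp were merged, and classes were set by the lists that called a site. Lists were also reduced to their 6629 strongest peaks by −log10 p. Annotation was GENCODE M21 basic, with promoters within 1000 bp of a start and genes counted within 10 kb, and sequence came from RefSeq GRCm38.p6. A 19 bp matrix was trained on 1 G1E-ER4+E2 library, taking the central 200 bp of its 2000 best peaks over 15 iterations, and scanned on both strands at p = 0.0001 per position, and was tested on simulated data. Exact permutation tests were two-sided. Intervals are 95% Wilson intervals for sites. Sites were named as the 10 with the best median rank percentile in each class, plus the genes of 8 lists (99 of 100 genes found) with an ERY-only or LSK-only site within 10 kb and up to 4 genes a list with a constant site. List genes with a constant site beyond these 4, and other sites said to be picked afterwards, were named after their values were seen. Some named sites and genes are not reported here. The members and gene lists were chosen with earlier results of these data known. Replicates of ERY and LSK are separate libraries of pooled cells, and those of G1E-ER4+E2 are libraries of a single cell line. The p-values measure the spread between libraries only. Alternatives were other peak strengths, overlap rules, promoter widths, motif thresholds and leaving out each list. Python 3.11.15, numpy 2.4.6, pandas 2.3.3, scipy 1.17.1, pysam 0.24.0 and matplotlib 3.10.9 were used.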

Additional observations from a re-analysis of the deposited data

Results flagged for a closer look

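The contrast between LSK-only and ERY-only sites differed between erythroid and other libraries, with a difference of -27.8 percentage points and p = 0.000129 in a two-sided exact permutation test of the difference itself. It was lower in each of the 15 erythroid libraries than in any of the 5 others.

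The CMP library, which the authors assessed as a low pass, lay far from the other 4 of the 5 non-erythroid libraries in 3 measures. It called 92.5% of sites constant in whole lists, against 98.8 to 99.9% in the other 4. It called 72.5% of strong ERY-only sites, against 90.9 to 97.2% in the other 4. It called 98.2% of strong constant sites, against 99.9 to 100% in the other 4. Chance marks about 1 in 20 such groups.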

How the results depend on the processing

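Class counts depended strongly on which peaks were used, and the directions of the tested differences did not change in any alternative run. With the strongest 6629 peaks by −log10 p there were 942 ERY-only, 1270 LSK-only and 2384 constant sites and 52.3% of LSK sites were kept, and by fold enrichment these were 963, 1309, 2370 and 51.8%. With a −log10 p of at least 10 there were 8 ERY-only and 1585 constant sites and 14.2% were kept. Without peaks mostly in repeats there were 60 ERY-only, 9513 LSK-only and 4155 constant sites and 24.95% were kept. Leaving out 1 list at a time gave 79 to 1163 ERY-only, 11148 to 20161 LSK-only and 4456 to 6601 constant sites, and 16.1 to 36.9% kept. The highest ERY-only count came without ERY list 2, and the highest LSK-only count and the lowest share kept came without LSK list 1. The cause was not tested.

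Leaving out 1 list at a time moved the ERY minus LSK difference in log10 peak number between -0.58 and -0.41, in promoter share between 1.44 and 4.61 percentage points and in motif share between -7.18 and -0.588 points. The contrast of erythroid and other libraries ranged from -29.6 to -16.4 points without 1 ERY, LSK or other primary-cell list, with p of 0.000129 to 0.000516, and was -24.2 with classes from the strongest peaks, -11.7 with the strongest peaks of the tested libraries, and -27.5 without CMP and GMP (p = 0.00245, exact permutation test). Of 2 alternatives added after the data were seen, equal-sized lists on both sides gave -40.7 and sites with a motif and not mostly repeats -27.2 (p = 0.000258, exact permutation test). All these tests of the contrast counted libraries of a single cell line as replicates. No paired analysis was possible because the replicate numbers were given in accession order and name the lists only. With 2 lists per type no test can go below p = 0.333, and weak sites near the lowest −log10 p of 5 can be missed in the shorter lists.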
